A study of Oryza sativa with 4 samples.

Results

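The wide shared peaks of OsMADS27 were the places where both peak lists of this series held a long interval of enrichment. Each peak of replicate 1 was paired with the replicate 2 peak that overlapped it most, by at least 50% of the shorter peak, which gave 56179 shared pairs from lists of 72738 and 73366 peaks. A pair was kept when it was 200 bp or longer in both lists, with a pileup of at least 100 and below 0.9 of the list maximum in both. The length limit passed 3861 pairs, of which the lower pileup limit removed 44 and the upper one 272. The remaining 3545 wide shared peaks were 6.31% of the shared pairs, with 3505 on the 12 numbered chromosomes and 40 on 13 unplaced sequences. The 45550 shared pairs that met the same pileup limits but were under 200 bp in at least 1 list are called narrower shared peaks below.

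The series asked where OsMADS27 binds in rice, as part of work on the response to nitrate. All 4 samples came from young seedlings of the indica cultivar Pusa Basmati 1 (PB1) that overexpressed OsMADS27 with a triple Myc tag at its N terminus; they were regenerating on half-strength Murashige-Skoog medium and received no treatment. The 2 pulled-down samples (MADS27 ChIP) were DNA captured with Myc-Trap beads, and the 2 input samples were sheared chromatin of the same plants' genotype. The promoter of the transgene, the number of transgenic lines, and whether the replicates were separate plants or pull-downs are not stated in the sources used here. Untagged plants or a mock pull-down were not analysed here, so every enrichment is relative to input from plants that carried the same transgene.

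MADS-domain proteins are transcription factors that bind DNA as dimers, typically at short A/T-rich elements called CArG boxes. OsMADS27 belongs to the clade of Arabidopsis AGL17 and ANR1, and ANR1 is known in Arabidopsis for its part in the growth of lateral roots towards nitrate. In chromatin immunoprecipitation a single bound site usually gives 1 compact peak with its summit near the middle. A longer interval can hold several adjoining places of enrichment, or a region where the tag number stays above the calling threshold over a longer stretch. Length alone does not tell these apart.

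Each peak has 4 values from the lists. The tag number is the number of pulled-down reads over the summit, the base with the most reads. The input background is the number of input reads there, or a regional average where the software used one. For the fold enrichment the pulled-down tags are first scaled to the depth of the input, by 0.960 and 0.981, and 1 is added to each side, so the fold lies slightly below the ratio of the printed tag numbers. The last value, q, is the false discovery rate of the call. All are the authors' values or follow from them directly. The input averaged 16.4 tags over a position in replicate 1 and 16.0 in replicate 2, and the background is also given as a multiple of that average. The pulled-down libraries kept 136923044 and 130482505 tags and the input libraries 131452322 and 127964706. The wide shared peaks were chosen by length and by pileup, the scaled tag number, and fold enrichment comes from the same contrast, so the values below are a description, with no test. The numbers of replicate 1 are given before those of replicate 2 throughout.

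At the peaks kept, the lists differed by less than Poisson counting gives. Over 2118 wide shared peaks whose summits lay no more than 50 bp apart, with each set of equal values counted once, the squared difference in pulled-down tags was 0.590 times that of Poisson sampling, and in the input background 0.866 times (2053 peaks). Narrower shared peaks gave 0.627 and 0.819. These pairs were selected for overlap, for pileup within limits in both lists and for near summits, all of which favour agreement, and the limit of 5 tags per position also lowers the number, so it does not describe the libraries as a whole. Since the labels do not call the replicates separate plants either, the values of both lists are printed side by side as 1 sample, with no SD beside them.

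The wide shared peaks were mostly not far above the limit. Their median length was 253 bp in both lists, with quartiles of 221 and 308 bp in replicate 1 and 221 and 311 bp in replicate 2. The longest were 936 and 819 bp. By the shorter of the 2 lengths, 2761 lay between 200 and 299 bp, 784 reached 300 bp, 192 reached 400 bp, 64 reached 500 bp and 21 reached 600 bp. They covered 987 and 989 kb, which was 12.9% and 12.7% of all listed base pairs, although they made up 4.87% and 4.83% of the peaks. A single list alone held more long peaks: 5146 (7.07%) and 5675 (7.74%) were 200 bp or longer, of which the wide shared peaks were 68.9% and 62.4%. Within the pileup limits, 1037 pairs reached 200 bp in replicate 1 only and 2178 in replicate 2 only; these count among the narrower shared peaks, whose single-list lengths ran up to 491 and 678 bp.

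Lengths agreed between the lists within 10% in 80.3% of the wide shared peaks, against 62.6% of the narrower ones, whose shorter lengths make a given number of base pairs weigh more. A difference of 2-fold or more occurred in 22 wide peaks (0.621%) and in 8.40% of the narrower ones, and the wide set could not hold such a pair unless its longer peak reached 400 bp, while the narrower set takes in every pair that is long in 1 list only. Both edges lay within 5 bp of each other in 51.3% of wide and 49.4% of narrower peaks, and the median distance was 3 bp at the start and 3 bp at the end in both sets. The replicate 2 peak was longer in 1864 wide peaks, the replicate 1 peak in 1445, and 236 were equal. In 4 places a replicate 2 peak of 466 to 544 bp had a pair of replicate 1 peaks as partners, so that 8 wide shared peaks stood for 4 replicate 2 peaks.

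**Figure D1:**
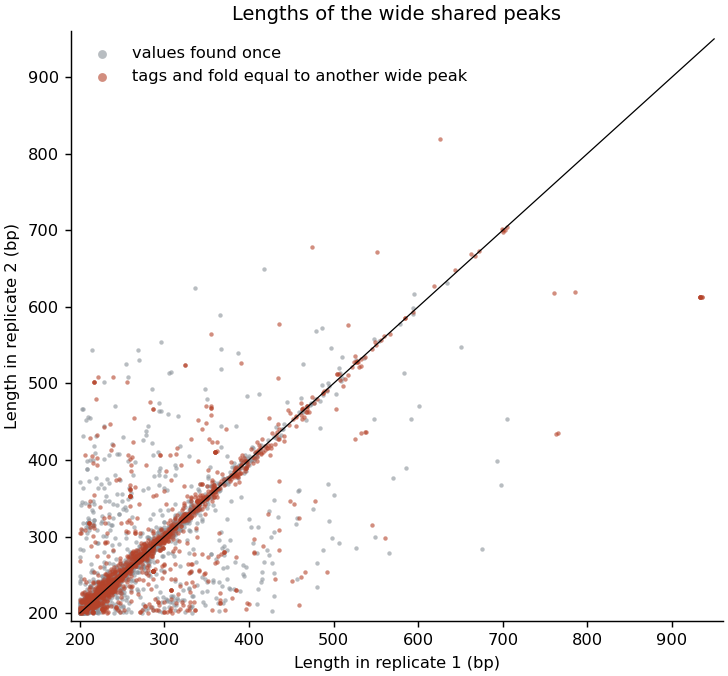
Length of each wide shared peak in replicate 1 (horizontal axis, bp) and in replicate 2 (vertical axis, bp); the line marks equal lengths, and red points are peaks whose tag number and fold enrichment equalled those of another wide shared peak in both lists. Most points lie close to the line, with lengths within 10% in 80.3%, and the cluster at 936 and 613 bp and the points near 700 bp are red.

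The pairs nearest to the limit of 200 bp were named by their shorter length, and ties went to the higher pileup. Their alike, high tag numbers come from that choice and do not show whether peaks are alike across the limit. Just inside it were chromosome 10 at 12523647 to 12523850, with lengths of 200 and 204 bp, 435 and 426 pulled-down tags and folds of 1.64 and 1.69, chromosome 4 at 33365915 to 33366129 (215 and 200 bp, 429 and 417 tags, folds 1.58 and 1.29), and chromosome 10 at 12548854 to 12549066 (200 and 213 bp, 423 and 431 tags, folds 1.87 and 1.96). Just outside it was chromosome 1 at 26675981 to 26676335, with 199 bp in replicate 1 and 355 bp in replicate 2, 446 and 436 tags and folds of 2.10 and 2.37. The other two, chromosome 11 at 7162801 to 7163006 and chromosome 5 at 26081236 to 26081441, had the same values as each other, 199 and 206 bp, 433 and 439 tags and folds of 1.74 and 1.79. All positions are 1-based as in the lists, cover the peak of both lists together, and belong to a build that the sources used here do not name.

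Wide shared peaks held many tags, and so did the input at the same places. The pulled-down tags at the summit had a median of 340 and 328, between 105 and 449 in replicate 1 and between 103 and 449 in replicate 2. The input background there had a median of 177 and 170 tags, 10.8 and 10.6 times the genome-wide average. Narrower shared peaks had a median of 283 and 275 pulled-down tags, over a background of 8.89 and 8.88 times the average. More tags were thus set against more input in the wide peaks, and their median fold enrichment was 1.81 and 1.85, beside 1.82 and 1.85 in the narrower ones. The folds of wide peaks ran between 1.16 and 4.64 in replicate 1 and between 1.17 and 4.66 in replicate 2. The median −log10 q was 18.4 and 19.6 in wide peaks and 15.2 and 16.1 in narrower ones.

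In replicate 1, 1109 wide shared peaks (31.3%) had a fold of at least 2, where 32.7% of the whole list reached it, and in replicate 2, 1255 (35.4%) did, where 36.5% of the list reached it. In both lists at once 855 reached it (24.1%, 95% Wilson interval 22.7 to 25.6%), beside 26.8% of the narrower and 25.4% of all shared pairs. At least 3-fold enrichment was seen at 40 in replicate 1 (1.13%, with 2.15% of the list), at 80 in replicate 2 (2.26%, with 3.03% of the list) and at 21 in both (0.592%, interval 0.388 to 0.904%), beside 0.722% of the narrower and 0.778% of all shared pairs. Strong enrichment over input was therefore no more frequent among wide peaks than in the lists as a whole. Intervals cover counting error only and treat peaks as separate, although many carried the same values.

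**Figure D2:**
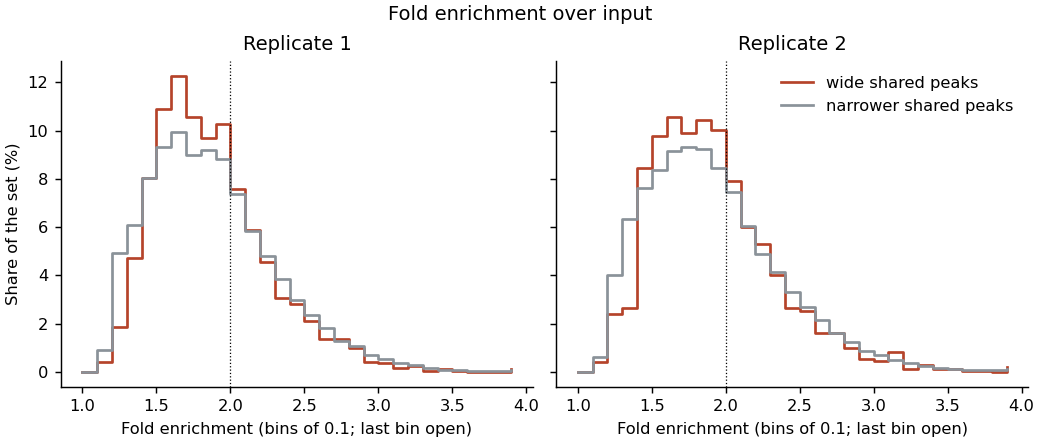
Share of the 3545 wide shared peaks (red) and of the 45550 narrower shared peaks (grey), in % of each set, by fold enrichment over input in bins of 0.1, for replicate 1 (left) and replicate 2 (right); the last bin is open and the dotted line marks a fold of 2. The wide peaks are fewer at the lowest folds and more between folds of 1.5 and 2, and the median is 1.81 and 1.85 in wide peaks and 1.82 and 1.85 in narrower ones.

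At a like input background the wide peaks had the higher median folds. Where the background, as the mean of both lists, was 2 to 5 times the average, the 188 wide peaks had median folds of 2.45 and 2.52, beside 2.27 and 2.32 in 6462 narrower peaks, and 77.7% against 61.7% reached a fold of 2 in both lists. Between 5 and 10 times, the 1308 wide peaks had medians of 2.08 and 2.09, beside 1.96 and 1.99 in narrower ones, and 47.0% against 36.0% reached a fold of 2. Between 10 and 15 times, the 1585 wide peaks had medians of 1.72 and 1.76, beside 1.67 and 1.70, and close shares of 5.93% against 5.67% reached it. At the higher backgrounds of this band the upper limit of 450 tags already bars a fold of 2. At 15 times and above, the 464 wide peaks had medians of 1.45 and 1.5, beside 1.38 and 1.40, and no peak of either set reached a fold of 2 in both lists, which the upper limit of 450 tags in the rule does not allow at such backgrounds. No wide peak lay below 2 times the average, where 25 narrower ones did. A long interval has more positions from which its summit is taken as the highest, and its part in these differences was not tested.

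Within the wide set, longer peaks lay over more input. The background rose over the length bands, with medians of 10.3 and 10.4 times the average at 200 to 249 bp, 10.8 and 10.6 times at 250 to 299 bp, 11.6 and 11.4 times at 300 to 399 bp, and 12.4 and 12.2 times at 400 bp and above. The median fold was 1.85 and 1.9 in the first of these bands, 1.79 and 1.82 in the next, then 1.75 and 1.82, and 1.68 and 1.74 in the longest. The share with a fold of 2 or more in both lists was 27.3%, 22.0%, 20.9% and 12.5% over the same bands. The upper tag limit of the rule bars a fold of 2 at high backgrounds, and the median background rose over these bands. The part of this limit in the lower folds and shares of longer peaks was not tested. Below 200 bp the share with a fold of 2 or more had no such order. It was 36.6% for 50 to 74 bp, 10.9% for 75 to 99 bp, 26.7% for 100 to 149 bp and 23.1% for 150 to 199 bp.

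Ranked by the smaller fold of both lists, the top 12 lay on 7 chromosomes and were 217 to 385 bp long. Their background was between 1.69 and 6.5 times the average, below the medians of the set in every case. That follows from the ranking, since the upper limit of 450 tags bars such folds at the median backgrounds of the set. The first was chromosome 6 at 7978394 to 7978634, 236 and 241 bp long. It held 288 pulled-down tags (exact 95% Poisson interval 256 to 323) over 62 input tags in replicate 1, and 244 in replicate 2 (214 to 277) over 58.5, with folds of 4.40 and 4.04. The second, chromosome 1 at 2305840 to 2306168, held the same 288 and 244 tags over 65 and 60.6 input tags, with folds of 4.20 and 3.90. The same pair of tag numbers also occurred at 2 narrower shared peaks, whose shorter lengths were 70 and 197 bp, so these 2 did not carry tag numbers of their own.

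The next places, like those above, shared tag number and fold together with no other wide peak. Chromosome 4 at 29445244 to 29445479 held 170 tags (145 to 198) over 36 input tags in replicate 1 and 154 tags (131 to 180) over 41 in replicate 2, with folds of 4.44 and 3.62. Chromosome 6 at 24163926 to 24164161 held 241 tags in both lists (212 to 273) over 64 and 58 input tags, with folds of 3.57 and 4.02. Chromosome 4 at 28956821 to 28957135 held 258 tags (227 to 291) over 69 and 289 tags (257 to 324) over 64, with folds of 3.55 and 4.38, and had the highest −log10 q of the group, 83.1 in replicate 2. In each of these 3 the pulled-down intervals lay above the input number of either list, which follows from their choice by high fold. The intervals leave out the counting error of the input.

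Fewer tags stood behind some of the others. Chromosome 6 at 610334 to 610593 held 128 tags (107 to 152) over 35 and 124 tags (103 to 148) over 34, with folds of 3.44 and 3.50. Chromosome 8 at 2247921 to 2248168 held 139 tags (117 to 164) over 41 and 132 tags (110 to 157) over 27, with folds of 3.20 and 4.66, and the larger difference between its lists was in the input. Chromosome 5 at 23042508 to 23042892 held 139 tags over 40 and 131 over 35, with folds of 3.28 and 3.60. It was the longest of the 12, and the summits of its lists lay 186 bp apart, while those of the other 11 lay within 10 bp.

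The remaining 4 had smaller-of-both folds between 3.18 and 3.32. Chromosome 5 at 15820884 to 15821118 held 190 and 203 tags over 54.2 and 49.3 input tags, with folds of 3.32 and 3.98. Chromosome 8 at 13635860 to 13636085 held 198 and 182 tags over 57 and 53, with folds of 3.29 and 3.32. Chromosome 2 at 28463616 to 28463888 held the most tags of the 12, 355 and 343 over 98 and 104, with folds of 3.45 and 3.21. Chromosome 7 at 12397315 to 12397534 held 304 and 321 tags over 91 and 97, with folds of 3.18 and 3.22. The next wide peak after these had a smaller fold of 3.17, so the group has no gap at its lower end. The fold was higher in replicate 1 at 4 of the 12, and the −log10 q ran between 26.7 and 83.1.

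All 21 wide peaks with a fold of 3 or more in both lists lay over little input for this set. Here too the upper limit of 450 tags bars such folds at the median backgrounds of the set. The 21 peaks sat on 10 chromosomes, with a median shorter length of 229 bp and a median background of 3.89 and 3.66 times the average. Of these, 4 had another wide peak within 5 kb. Only 2 of the 21 shared tag number and fold with each other, chromosome 5 at 4396258 to 4396462 and chromosome 6 at 21410786 to 21411003, both with 291 and 246 tags over 86 and 76 input tags and folds of 3.22 and 3.15; these were picked out after their values were seen. Of the 3 wide peaks with the lowest mean background, 2 are described above (chromosome 8 at 2247921 and chromosome 6 at 610334). The other was chromosome 3 at 2735568 to 2735821, with 114 tags in both lists (94 to 137) over 36 and 32 input tags and folds of 2.98 and 3.42. Its nearest neighbour in either list was over 30 kb away (30195 and 30186 bp).

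The lists ranked the wide peaks much alike. Across the 3545 wide peaks Spearman's rho between the lists was 0.96 for pulled-down tags, 0.94 for the input background, 0.78 for fold enrichment, 0.77 for length and 0.72 for −log10 q, and for fold enrichment it was 0.82 in narrower peaks. These points share libraries, depth and, in many cases, values, so the coefficients are a description. With the background held between 5 and 10 times the average, rho for fold enrichment was 0.62 (1308 peaks), and between 10 and 15 times it was 0.60 (1585 peaks).

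Where the folds of a wide peak differed between the lists, the input usually differed too. The fold differed by over 1.2 times in 530 wide peaks (14.95%). The background differed by over 1.2 times in 330 of these 530, and the pulled-down tags in 49. Over all wide peaks, such a difference was found in 427 for the background and in 90 for the tags. Input numbers were smaller (medians of 177 and 170, against 340 and 328 pulled-down tags), so counting error alone passes 1.2 times more readily there. Its part was not tested. In the 323 wide peaks with summits over 100 bp apart, the background was also read at separate bases. A fold difference of over 1.5 times occurred in 38 wide peaks. The most unequal, chromosome 6 at 22495520 to 22495836, held 394 and 378 pulled-down tags, over 148 input tags in replicate 1 and 309 in replicate 2, and its folds were 2.55 and 1.2. Chromosome 6 at 24163207 to 24163849 was unequal the other way, with 232 and 213 tags over 157 and 69 input tags and folds of 1.42 and 3.00. Its nearest other wide peak was the named one at 24163926, 76 bp away, while the nearest listed peak of any length lay 62 and 51 bp away. The summits of these 2 peaks lay 205 and 160 bp apart between the lists, so the background was not read at the same base; both were chosen after their values were seen. Replicate 2 had the higher fold in 1980 wide peaks (55.9%).

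Summits of wide peaks lay at most 10 bp apart in 74.5% of the wide peaks (95% Wilson interval 73.0 to 75.9%), against 82.2% of the narrower ones, and over 100 bp apart in 9.11% against 3.23%. The same base was the summit in both lists in 30.9% of wide and 34.4% of narrower peaks. The median distance was 2 bp against 1 bp, and the greatest 424 bp against 493 bp. Close to the limit of 200 bp the sets had like shares within 10 bp, 76.0% at 200 to 249 bp and 76.25% at 150 to 199 bp. Among longer wide peaks it was 70.5% at 250 to 299 bp, 73.5% at 300 to 399 bp and 80.2% at 400 bp and above.

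Summits of wide peaks were found in every part of the length. The first and last 20%, together 40% of the length, held the summit in 45.6% and 45.4% of wide peaks, and the central 20% held it in 21.7% and 21.9%. Over 10 equal bins of the length the profile of the wide peaks was uneven, with 3 high places, near each end and in the middle. In base pairs, summits of wide peaks lay farther from an edge than those of narrower ones, with a median distance to the nearer edge of 62 and 63 bp, against 25 and 26 bp. The summit lay 20 to 39 bp from the nearer edge in 1118 wide peaks of replicate 1 (31.5%) and 1080 of replicate 2 (30.5%), against 61.5% and 61.1% of narrower ones. In a narrower peak such a distance reaches well into the interval, so shares by part of the length (25.9% and 25.8% of narrower peaks in the first and last 20%) cannot be compared between sets of different length. Left and right ends were used alike, 823 and 794 times in replicate 1 and 839 and 772 times in replicate 2. Of the 1320 wide peaks with the summit in the first or last 20% in both lists, 1256 had it at the same end in both.

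**Figure D3:**
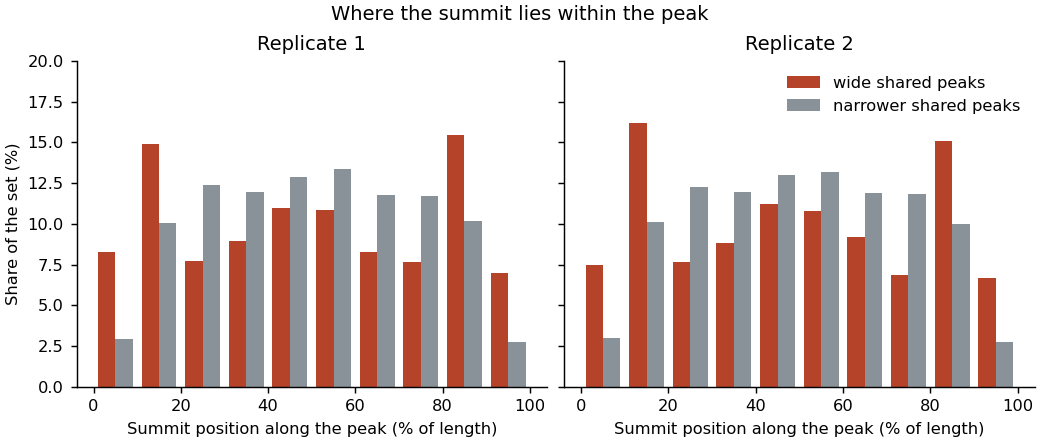
Position of the summit along the peak, in % of its length, for wide shared peaks (red) and narrower shared peaks (grey), as the share of each set in % over 10 bins, for replicate 1 (left) and replicate 2 (right). The red bars are tallest in the second and the ninth bin, with a lower rise in the middle, and the grey bars are tallest in the middle.

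Tags were called as 50 bp long without extension, and stretches past the threshold with a gap of up to 50 bp were joined into 1 peak, per the file headers. The lists give 1 summit per peak and no profile, so how many stretches a wide peak holds was not tested.

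Wide shared peaks were found on every numbered chromosome, and their density differed 2.03-fold between the highest and the lowest. Chromosome 4 held 484, or 13.6 per Mb, chromosome 5 held 11.4 per Mb, chromosome 1 held 464, or 10.7 per Mb, and chromosome 3 held 245, or 6.73 per Mb. Narrower peaks differed 1.79-fold. The rank order of the 12 chromosomes was in part the same for both kinds, with Spearman's rho of 0.64 as a description. Wide peaks made up 7.19% of the wide and narrower peaks on numbered chromosomes. The share was 8.53% on chromosome 1 (95% Wilson interval 7.81 to 9.30%) and 8.20% on chromosome 2, against 5.82% on chromosome 10 and 5.49% on chromosome 12 (4.81 to 6.27%). On unplaced sequences it was 11.8%, 40 wide peaks beside 298 narrower ones. The median fold of the wide peaks was close to uniform over chromosomes, between 1.75 and 1.85 in replicate 1 and between 1.79 and 1.91 in replicate 2.

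**Figure D4:**
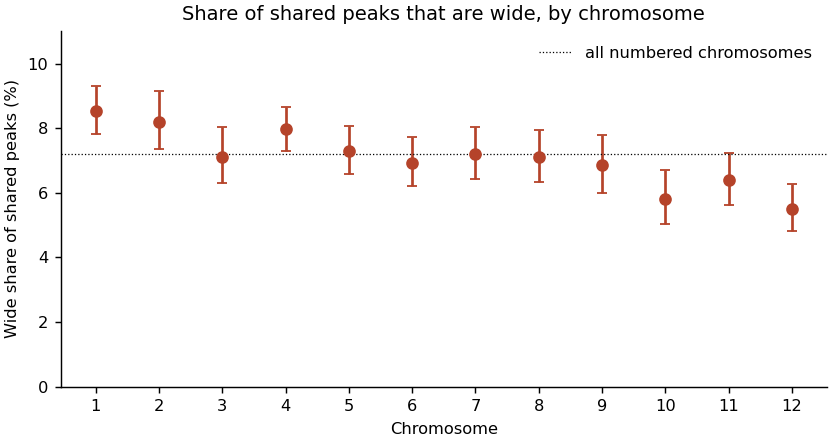
Share of shared peaks that were wide (vertical axis, % of wide and narrower shared peaks together) on each of the 12 numbered chromosomes, with 95% Wilson intervals that cover counting error only; the dotted line marks 7.19%, the share over all of them. The intervals of chromosomes 1, 2 and 4 lie above the line, those of chromosomes 10 and 12 lie below it, and the other 7 cross it.

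Along the chromosomes, windows of 500 kb held a median of 4 wide peaks, and 89 of the 740 windows held none. The fullest was chromosome 7 between 25 and 25.5 Mb, with 23 wide peaks beside 95 narrower ones, so that 19.5% were wide. Chromosome 2 between 23 and 23.5 Mb held 22 beside 117 (15.8%). The window with the most narrower peaks, chromosome 5 between 9.5 and 10 Mb, held 7 wide peaks beside 225 narrower ones (3.02%). Over all windows wide and narrower numbers ran together (Spearman's rho 0.68, as a description). The wide share nevertheless stayed within a small range over 4 equal groups of windows ordered by their number of narrower peaks, at 6.51%, 6.98%, 7.88% and 6.97%.

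Many wide peaks had another close by. The median distance to the nearest other wide peak, edge to edge, was 2344 bp, with quartiles of 652 and 21566 bp. Another wide peak lay within 1 kb of 1170 (33.0%), within 5 kb of 2163 (61.0%, 95% Wilson interval 59.4 to 62.6%) and within 10 kb of 2510 (70.8%), while for 628 the nearest was over 50 kb away and 4 had no other on their sequence. Among the more numerous narrower peaks, 94.6% had another narrower one within 5 kb. Peaks of any length were also near: 87.6% and 87.8% of wide peaks had another peak of their list within 500 bp, against 76.9% and 77.4% of narrower ones, and the median gap to it was 143 and 132 bp, against 187 and 184 bp. In both lists at once, 22 wide peaks had no other peak within 10 kb; they lay on 10 chromosomes, with median folds of 1.9 and 2.09 over a background of 6.42 and 7.06 times the average, and 8 of them (36.4%, 95% Wilson interval 19.7 to 57.0%) reached a fold of 2 in both lists, beside 24.1% of all wide peaks and 25.4% of all shared pairs. Chaining wide peaks less than 5 kb apart gave 643 runs of 2 or more that held 2163 wide peaks, and 1382 stood alone. Of the runs, 145 held 5 or more, together 876 wide peaks.

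Many wide peaks at separate places carried the same numbers. In 1444 of them (40.7%), the tag number and the fold enrichment of both lists equalled those of at least 1 other wide peak, in 406 sets, of which 332 (81.8%) spanned more than 1 chromosome. Among narrower peaks the share was 31.8%, from a pool of 45550 in which a match is easier to find. With equal length in both lists asked for as well, 189 wide peaks (5.33%) remained in 80 sets, against 10.8% of narrower ones. Counting matches to narrower peaks too, 1796 wide peaks (50.7%) shared tag number and fold with some other shared peak. The sources used here do not give how reads that match the genome in several places were treated, and whether a set stands for repeated DNA was not tested.

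The largest set held 26 wide peaks on 11 numbered chromosomes and 2 unplaced sequences. Each had 361 pulled-down tags over 178 input tags in replicate 1 and 393 over 169 in replicate 2, with folds of 1.94 and 2.27, and all 26 had summits within 10 bp between the lists. Their lengths were not equal, at 205 to 324 bp and 207 to 329 bp, and 15 narrower peaks had the same tags and folds. The first of them by position was chromosome 1 at 468561 to 468795. The next set held 24 wide peaks with 441 and 420 tags and folds of 1.64 and 1.70, first on chromosome 1 at 9541260 to 9541782. Further sets held 21 (370 and 371 tags, folds 1.47 and 1.69), 18 (397 and 377 tags, folds 1.68 and 1.54) and 17 (335 and 343 tags, folds 1.59 and 1.74). The largest set with equal length as well held 8 wide peaks on 5 chromosomes, with 279 and 290 tags, folds of 1.96 and 2.52 and lengths of 286 and 255 bp.

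Wide peaks in sets had lower folds than the others. Their median fold was 1.68 and 1.73, against 1.92 and 1.94 in the 2101 that were in no set, and their background 12.1 and 11.9 times the average against 9.92 and 9.88 times. Every peak was counted, so values that recur often weigh more: the 1444 wide peaks in sets carried 406 combinations of values. In both lists, 13.9% of those in sets and 31.1% of the others had at least 2-fold enrichment, and 2 of those in sets and 19 of the others at least 3-fold. The upper tag limit of the rule bars such folds at high backgrounds, and the median background was higher in sets. The part of this limit in the lower folds and shares was not tested. Membership in a set grew with length, at 35.9% for 200 to 249 bp, 42.1% for 250 to 299 bp, 47.1% for 300 to 399 bp and 63.0% for 400 bp and above. Of the 21 wide peaks of 600 bp or more, 20 were in sets.

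The 6 longest wide peaks by the shorter length were 1 such case. They lay on 5 chromosomes, at 1058862 to 1059566 and 11969787 to 11970486 on chromosome 4, 41411574 to 41412276 on chromosome 1, 22281256 to 22281957 on chromosome 7, 9120705 to 9121404 on chromosome 5 and 36027972 to 36028644 on chromosome 3. Each had 438 pulled-down tags over 308 input tags in replicate 1 and 411 over 263 in replicate 2, folds of 1.36 and 1.53 and summits 4 bp apart between the lists. Their lengths were 672 to 705 bp. In all, 18 wide peaks on 8 chromosomes carried these tag numbers, with lengths between 225 and 705 bp in replicate 1 and between 229 and 704 bp in replicate 2. The longest peak of a single list, chromosome 1 at 29258817 to 29259761, was 936 bp in replicate 1 and 613 bp in replicate 2, with 341 and 317 tags and folds of 1.87 and 1.81, and belonged to a set of 12.

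Not only the numbers but also the distances between wide peaks recurred. Of 1786 pairs of consecutive wide peaks less than 10 kb apart, 314 (17.6%) had the tag numbers of both partners and the distance between their summits, within 10 bp, found again elsewhere. They formed 116 combinations, 95 of them on more than 1 chromosome. Peaks with 311 and 293 tags stood 746 to 747 bp from peaks with 363 and 319 tags in 9 places on 7 chromosomes. Peaks with 279 and 290 tags stood 835 to 836 bp from peaks with 341 and 317 tags in 8 places on 5 chromosomes. Peaks with 361 and 393 tags, the numbers of the largest set, stood 570 to 571 bp from peaks with 389 and 392 tags in 8 places on 7 chromosomes. These spacings are fixed arrangements in the listed coordinates; what lies in them was not examined, since no sequence of the build was used here.

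Equal tag numbers also recurred within and between the fullest runs. The fullest held 13 wide peaks on chromosome 1 between 41789131 and 41810596, a stretch of 21.5 kb, with folds of 1.47 to 2.05 and 1.45 to 2.52, and 9 of the 13 were in sets. Its first and last peak had the same 313 and 325 tags and stood 21238 bp apart. Inside it, the tag numbers 279 and 290 occurred at 2 places 5181 bp apart, and 341 and 317 at 2 places 6091 bp apart. A run of 10 on chromosome 10 between 6675167 and 6687216 (12.05 kb, 9 in sets) also began and ended with equal tag numbers, 182 and 178, with summits 11832 bp apart. Other runs of 10 lay on chromosome 7 between 23132076 and 23143578, with 4 in sets, and on chromosome 9 between 14169815 and 14183768, with 6 in sets. The runs on chromosomes 10 and 9 shared 3 tag number pairs in opposite order: 262 and 253, 432 and 421, and 335 and 343. The summits of the first 2 stood 1823 bp apart on chromosome 10 and 1825 bp on chromosome 9, and those of the last 2 stood 216 and 214 bp apart.

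**Figure D5:**
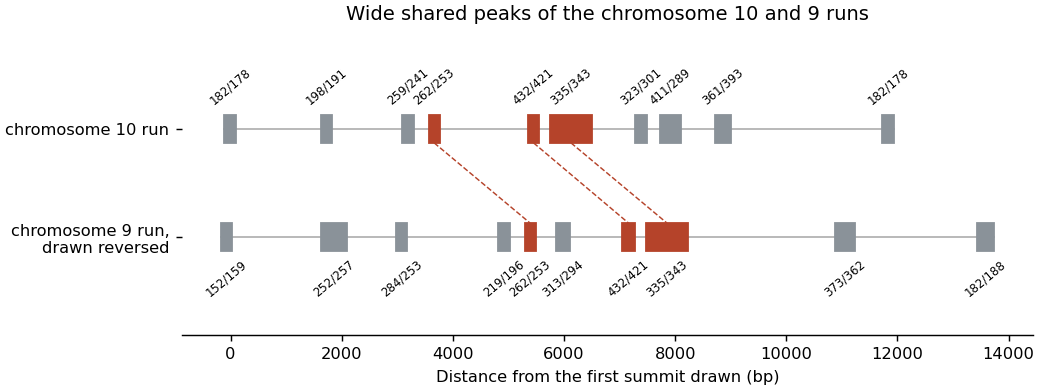
Wide shared peaks (boxes, drawn to scale) of the run on chromosome 10 and of the run on chromosome 9, the second reversed, by distance from the first summit drawn (bp); the numbers are pulled-down tags in replicate 1 and replicate 2. Red boxes are the 3 peaks with equal tag numbers, and dashed, nearly parallel lines join the centres of these boxes. Their summits, which are not marked, stood 1823 and 216 bp apart on chromosome 10 and 1825 and 214 bp apart on chromosome 9.

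Equal ends were found in a small part of the runs. Among 355 runs of 3 or more wide peaks, 16 began and ended with the same tag numbers in both lists, 4237 to 21238 bp apart with a median of 11774 bp. A tag number pair occurred more than once in 31 of the 643 runs of 2 or more (4.82%). Most runs were thus made of wide peaks with different tag numbers.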

How the data were processed

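Peak lists of the 2 pulled-down samples were used, each called by the authors against the input of the same number, so the 2 input samples enter through them. The submitters' processing notes name cutadapt and MACS2. Per the file headers, the authors' MACS 2.2.5 called narrow peaks per replicate at a q cutoff of 0.05, with an effective genome of 400 Mb, 50 bp tags, a predicted fragment length of 50 bp (the labels put sheared DNA at 200 to 500 bp) and no more than 5 tags kept per position. A position could thus hold at most 500 tags. Fragments longer than the tags were not extended, which bears on peak length and on how stretches were joined. The sources used here name neither the aligner nor the build, nor how multiply matching reads were handled.

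The deposited pileup is a signal, scaled to the smaller library by 0.960 and 0.981; division by that scale gave whole tags, within 0.02, for 100% of peaks in both lists. Fold enrichment was deposited as a ratio, pileup plus 1 over background plus 1, and the background was recomputed from it. The −log10 p and q were deposited as the authors' software gave them. Length, start, end and summit are in base pairs.

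Of 171891240 and 161362336 pulled-down tags and 162741825 and 157206538 input tags, the header counts give those kept, as printed with the results. Wilson intervals of shares and exact Poisson intervals of tag numbers are at 95% and cover counting error only. Named by rule were the 12 highest smaller-of-both folds, the 6 greatest lengths, the 3 pairs on either side of 200 bp, the 3 lowest backgrounds, the fullest runs (4, because of ties), the largest sets and the 2 fullest windows of 500 kb; others were picked after their values were seen. The members, rules and lists were chosen with earlier results of these data known. Genes, sequences and motifs were not examined, because the only gene table at hand belongs to another assembly. The pairing code was tested on simulated lists. Computations were done in Python 3.11.15 (pandas 2.3.3, NumPy 2.4.6, SciPy 1.17.1, matplotlib 3.10.9).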

Additional observations from a re-analysis of the deposited data

How the results depend on the processing

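Of the wide shared peaks there were 3545, with a median fold (mean of both lists) of 1.84, a median background of 10.7 times the average, 855 with a fold of 2 or more in both lists and 61.0% with another wide peak within 5 kb. A count was taken as moved beyond 1.5 times, and the share beyond its 95% Wilson interval. A median was taken as moved beyond the SD between the medians of the 2 lists (0.0265 for fold and 0.102 for background, used only as a yardstick here). An overlap of 80% of the shorter or 50% of both peaks moved none of these 5 values, with 3506 and 3503 peaks. Neither did counting peaks of equal tags, fold and length once (3436), or using each replicate 2 peak once (3541, chosen after the data were seen). Counting once by tags and fold alone, which 1444 wide peaks shared with another, was not done, so the weight of those repeats was not tested. A length limit of 150 bp gave 7566 peaks, a background of 10.4 times, 1783 with a fold of 2 or more, and 70.4% with a neighbour. A limit of 300 bp gave 784 peaks, a fold of 1.78, a background of 11.9 times, 148 with a fold of 2 or more, and 34.6%. A pileup of at least 200 gave a fold of 1.80 and a background of 11.2 times. A pileup below 0.8 of the maximum gave 1.89, 9.75 times and 53.1%, and no upper limit gave 11.1 times. With a fold of 2 or more in both lists required, 855 peaks had a background of 7.31 times and 22.8% had a neighbour. A single list without a partner, also chosen after the data were seen, gave 4718 to 5294 peaks, a fold of 1.81 to 1.86, a background of 10.4 to 10.6 times, 1473 to 1940 with a fold of 2 or more in that list alone, and 62.4 to 64.5% with a neighbour. Shares with a neighbour and counts depend on how many peaks are kept.

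No paired analysis was possible because no result comes from a test, and each list was already called against the input of its own number. Both lists come from 1 genotype, an untagged or mock control was not analysed here, and the tag limits bound the fold where input is high, so low folds over high input are also what the limits allow.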
